A study of Mus musculus with 2 samples.

Results

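The summed level of 4 closely related miR-378 entries was 2.68-fold higher in an exosome library from IL-4-treated mouse macrophages than in one from IFN-γ-treated macrophages, while both arms of miR-511 rested on 8 reads or fewer. Of the 1976 mature miRNAs listed for each library, 7 were chosen by name, namely mmu-miR-378a-3p, mmu-miR-378a-5p, mmu-miR-378b, mmu-miR-378c, mmu-miR-378d, mmu-miR-511-3p and mmu-miR-511-5p (mmu for mouse, left out below). Of these, miR-378a and miR-511 are linked to alternative activation, the macrophage state that IL-4 induces. The entries miR-378b, miR-378c and miR-378d were included as members of the miR-378 family. The study sequenced small RNA of exosomes, the small vesicles that cells release, from bone marrow-derived macrophages of C57BL/6 mice aged 5 to 6 weeks. All cells were grown for 7 days with M-CSF, a macrophage growth factor, at 10 ng/mL. The M1 group was then polarised for 1 day with IFN-γ and the M2 group with IL-4, each at 20 ng/mL, before 2 days in serum-free medium from which the exosomes were taken, called IFN-γ exosomes and IL-4 exosomes here. With 1 library per group there is no replicate error, and each difference is between these libraries, without a test of the conditions. Whether marrow of several mice was pooled is not given in the sources used here.

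MicroRNAs guide Argonaute proteins to messenger RNAs, mainly through the seed, which is bases 2 to 8 counted from the 5′ end. A precursor hairpin gives a 5p and a 3p arm, of which usually 1 is kept as the guide. miR-378a is made from an intron of Ppargc1b, which encodes PGC-1β, a coactivator of mitochondrial genes and of the oxidative metabolism of IL-4-treated macrophages. It is known to be induced by IL-4 and to restrain PI3K and Akt signalling. miR-511 is made from an intron of Mrc1, which encodes the mannose receptor CD206, a standard marker of alternative activation, and miR-511-3p is known from tumour-associated macrophages.

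The mature forms of miR-378b, miR-378c and miR-378d are shown because they differ by few bases, so that a short read may match several entries. The sequences are from the RefSeq table for GRCm38.p6, in which 4 of the 7 members were matched for use here, and capitals mark the seed.
miR-378b: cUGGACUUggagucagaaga
miR-378c: aCUGGACUuggagucagaagc
miR-378d: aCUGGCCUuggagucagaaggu
miR-511-3p: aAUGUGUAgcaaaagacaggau
miR-378b started 1 base later than miR-378c, and the first 19 of its 20 bases were found without a mismatch in miR-378c. The remaining base was the substitution A20C, with positions counted from the 5′ end of miR-378b. miR-378c and miR-378d differed over 21 aligned bases by A6C and C21G, counted from the 5′ end of miR-378c, and shared a run of 14 bases. The A6C difference lies in the seed. The 3 seeds therefore differed, that of miR-378b by its shifted start.

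The hairpins differed more than the mature forms. Those of miR-378b, miR-378c and miR-511 are shown to place the mature form, in capitals, within each.
miR-378b hairpin: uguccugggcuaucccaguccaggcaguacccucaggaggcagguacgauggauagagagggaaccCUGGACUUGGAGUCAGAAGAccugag
miR-378c hairpin: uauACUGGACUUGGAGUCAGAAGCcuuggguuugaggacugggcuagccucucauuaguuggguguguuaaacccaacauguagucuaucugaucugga
miR-511-3p hairpin: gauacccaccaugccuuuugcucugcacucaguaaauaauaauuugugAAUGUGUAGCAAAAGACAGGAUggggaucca
The mature miR-378b took bases 67 to 86 of a hairpin of 92, on its 3′ side. In contrast, miR-378c took bases 4 to 24 of 99 and miR-378d bases 16 to 37 of 110, on the 5′ side. miR-511-3p took bases 49 to 70 of 79. All positions are on GRCm38, the assembly called mm10. The miR-378b hairpin, chr11:88352773-88352864 on the plus strand, lies within an intron of Msi2, which is on the opposite strand. The miR-378c hairpin, chr14:46954830-46954928 on the minus strand, lies within an intron of Samd4, also on the opposite strand. The miR-378d hairpin, chr10:126710282-126710391, overlapped no other annotated gene. Only the hairpins of miR-378a, in Ppargc1b, and of miR-511, chr2:14261003-14261081 in Mrc1, were in an intron of a gene on their own strand, among the 5 hairpins.

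Values were deposited as log2(level + 1), and a level is given here in linear units, found by undoing the logarithm and taking off the added 1. The levels summed to 686353 units in IFN-γ exosomes and 734637 units in IL-4 exosomes. The lowest levels fell in separate steps, taken as whole reads, each worth 0.80 units in IFN-γ exosomes and 1.25 units in IL-4 exosomes (medians over 1 to 10 reads). Of the 70 pairs of read numbers seen, 44 were shared by several miRNAs, and in all 44 those miRNAs had identical deposited values. Above 10 reads a read number is an estimate from the same worth, and every interval in brackets is a 95% exact interval that covers counting error only. Markers of myeloid cells were present in both libraries. The 8 on the list held 21.7% of the level in IFN-γ exosomes and 13.6% in IL-4 exosomes, and none was at 0. Most of that level was miR-146a-5p and miR-21a-5p. Of these, miR-146a-5p stood at 120526 units in IFN-γ exosomes and 50604 units in IL-4 exosomes, and miR-21a-5p at 22866 and 45449 units. Every other myeloid marker stood between 142 and 2429 units in IFN-γ exosomes and between 229 and 1019 units in IL-4 exosomes. As exosomes were sequenced in bulk, more vesicles carrying a miRNA and more copies per vesicle cannot be told apart, nor can the numbers and the output of the releasing cells.

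**Figure D1:**
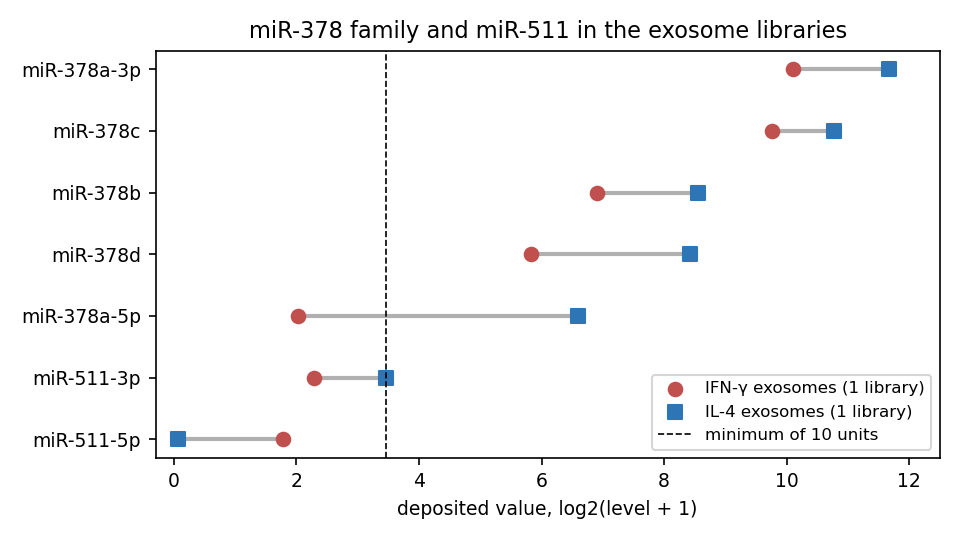
Deposited log2(level + 1) values of the 7 members in IFN-γ exosomes (red circles) and IL-4 exosomes (blue squares), 1 library each, with a dashed line at the minimum of 10 units. The 5 miR-378 entries and miR-511-3p lie to the right in IL-4 exosomes, from 2.02 against 6.60 for miR-378a-5p to 9.76 against 10.78 for miR-378c, and miR-511-5p lies to the left.

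miR-378a-3p, the guide strand of the Ppargc1b hairpin, was the most abundant member in both libraries. That hairpin lies on chromosome 18 from 61397835 to 61397900, on the minus strand. Its log2 value was 10.10 in IFN-γ exosomes and 11.67 in IL-4 exosomes, that is 1094 and 3246 units. It ranked 54th of all miRNAs in IFN-γ exosomes and 30th in IL-4 exosomes, with 0.159% and 0.442% of the summed level. The log2 ratio of IFN-γ over IL-4, the difference of the deposited values, was -1.57, so that it was 2.96-fold higher in IL-4 exosomes. Among the 15 other compared miRNAs whose mean log2 value lay within 0.5 of its own, the ratio had a median of 0.46 and ran from -1.94 to 2.19, and 1 had a ratio as low.

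miR-378c, which differs from miR-378b by the shifted start and the last base, was next in level. It stood at 867 units in IFN-γ exosomes and 1752 units in IL-4 exosomes. Its log2 ratio of -1.02 (2.02-fold) was the smallest of the miR-378 entries and lay just past the 2-fold line. Divided by the library sums it was -0.92, which is within 2-fold. Of the 20 other compared miRNAs of like level, 3 had a ratio as low as -1.02.

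miR-378b stood at 119 units in IFN-γ exosomes and 375 units in IL-4 exosomes, a log2 ratio of -1.65 (3.14-fold). miR-378d, the entry with the changed seed base, stood at 56.1 and 341 units, a log2 ratio of -2.58 (5.99-fold). These entries were closer in IL-4 exosomes, near 299 reads (266 to 335) for miR-378b and 272 reads (241 to 306) for miR-378d, than in IFN-γ exosomes, near 148 (125 to 174) and 70 (54.6 to 88.4). The intervals overlapped in IL-4 exosomes and did not overlap in IFN-γ exosomes. Among the 28 compared miRNAs of like level, none had a ratio as low as that of miR-378d, the lowest being -2.54. For miR-378b, 1 of 23 such miRNAs had a ratio as low.

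The ratios of these 4 entries spanned 1.57 on the log2 scale. At the read worth of the low values, the counting interval of the IL-4 over IFN-γ fold was 1.87 to 2.19 for miR-378c and 4.66 to 8.03 for miR-378d, and these did not overlap. Variation between cultures, vesicle preparations and libraries is not in these intervals. How reads that match several entries were shared out is not given in the sources used here, so the 4 entries may not be 4 separate observations. If each read was counted once, their sum depends less on that sharing. A read counted for every matching entry would enter the sum more than once. The sum was 2136 units in IFN-γ exosomes and 5715 units in IL-4 exosomes, or 0.311% and 0.778% of the libraries. The summed level was thus 2.68-fold higher in IL-4 exosomes, a log2 ratio of -1.42. Leaving out each entry in turn moved it between -1.64 and -1.25.

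The make-up of the sum differed between the libraries. miR-378a-3p held 51.2% of it in IFN-γ exosomes and 56.8% in IL-4 exosomes. miR-378c held 40.6% in IFN-γ exosomes and 30.7% in IL-4 exosomes, while miR-378d stood at 2.63% and 5.97%. miR-378b stood at 5.56% and 6.56%. The order of the entries, miR-378a-3p, miR-378c, miR-378b and miR-378d, was the same in both libraries.

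**Figure D2:**
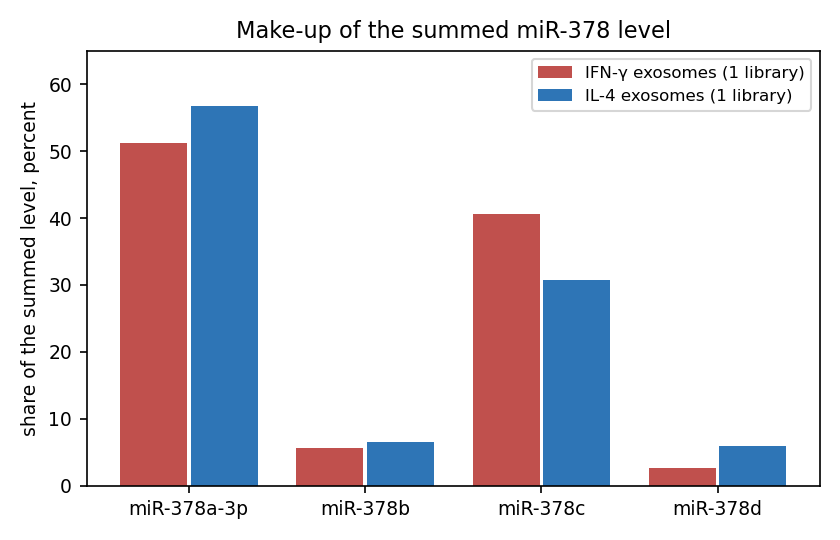
Share of the summed level of the 4 miR-378 entries (percent, vertical axis) held by each entry, in IFN-γ exosomes (red bars) and IL-4 exosomes (blue bars), 1 library each. The share of miR-378c is smaller in IL-4 exosomes, 30.7% against 40.6%, and the other 3 shares are larger.

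miR-378a-5p, the other arm of the Ppargc1b hairpin, had the largest ratio of the members. Its log2 value was 2.02 in IFN-γ exosomes and 6.60 in IL-4 exosomes, that is 3.06 and 95.8 units. The IFN-γ value was on the step of 4 reads (1.09 to 10.2), and the IL-4 value corresponded to near 76 reads (59.9 to 95.1). The log2 ratio of -4.58, or 23.8-fold, was the second most IL-4-sided of the 337 miRNAs compared, and no other of the 48 compared miRNAs of like level had one as low. As miR-378a-5p reached the minimum of 10 units only in IL-4 exosomes, its ratio had to lean that way. It was not compared when the minimum was required in both libraries. On levels without the added 1 the fold was 31.3, with a counting interval of 11.2 to 112. The size of the fold is therefore known only within that range, while the interval lies well above 1.

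The arms of miR-378a thus had unequal ratios. The 3p arm stood at 357 times the level of the 5p arm in IFN-γ exosomes and at 33.9 times in IL-4 exosomes. The first of these rests on 4 reads of the 5p arm (1.09 to 10.2). The 5p ratio minus the 3p ratio was -3.01 on the log2 scale, and -1.46 when 10 instead of 1 was added to each level. Both arms were compared for 68 hairpins, where the size of that difference, with 1 added, had a median of 0.77 and an upper quartile of 1.47. It was as large as that of miR-378a in 5 of the 68, counting miR-378a itself, the others being miR-322, miR-26b, miR-582 and let-7d, named after their values were seen. Both arms were at least 2-fold higher in IL-4 exosomes for 4 of the 68 hairpins, among them miR-378a, and at least 2-fold higher in IFN-γ exosomes for 13. Some reads counted for the 3p arm may come from the other family hairpins, and their part in this difference was not tested.

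**Figure D3:**
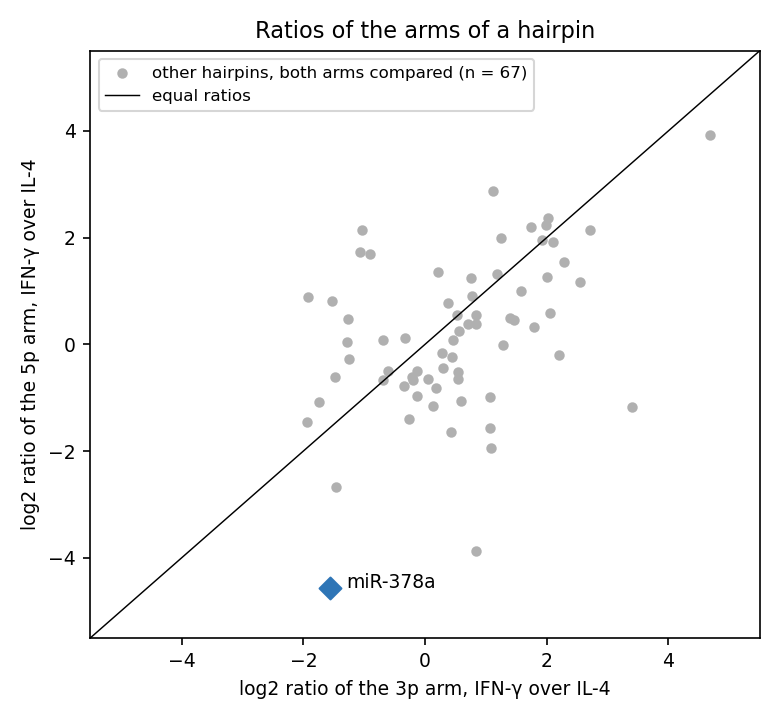
Log2 ratio of IFN-γ over IL-4 for the 5p arm (vertical axis) against the 3p arm (horizontal axis) of hairpins with both arms compared. The diagonal marks equal ratios. miR-378a (blue diamond) lies at -1.57 and -4.58, below the diagonal and in the corner where both arms were higher in IL-4 exosomes.

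miR-511-3p, the arm of the Mrc1 hairpin that is known from macrophages, was scarcely detected. Its log2 value was 2.29 in IFN-γ exosomes and 3.47 in IL-4 exosomes, that is 3.89 and 10.1 units. These values were on the steps of 5 reads (1.62 to 11.7) and 8 reads (3.45 to 15.8). The log2 ratio of -1.18 was 2.26-fold in favour of IL-4 exosomes. On levels without the added 1 the fold was 2.59, with a counting interval of 0.723 to 9.73 that includes equality. A difference of miR-511-3p between the libraries was therefore not detectable at this depth. With 10 added to each level the log2 ratio was -0.53. Of the 38 other compared miRNAs of like level, 15 had a ratio as low as -1.18.

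miR-511-5p was on the step of 3 reads in IFN-γ exosomes (0.619 to 8.77), at 2.42 units. In IL-4 exosomes it was on the step of 0 reads. The limit used here for a count of 0 is 3 reads, or 3.76 units, and the upper bound of the exact interval is 3.69 reads. Both libraries were at or below that limit, so no fold is given. The order of its arms also rests on few reads, 5 of the 3p arm against 3 of the 5p arm in IFN-γ exosomes and 8 against 0 in IL-4 exosomes. The same pair of 3 reads in IFN-γ exosomes and 0 in IL-4 exosomes was seen for 16 miRNAs, and that of 5 and 8 reads for 2, which are miR-511-3p and miR-7062-5p.

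**Figure D4:**
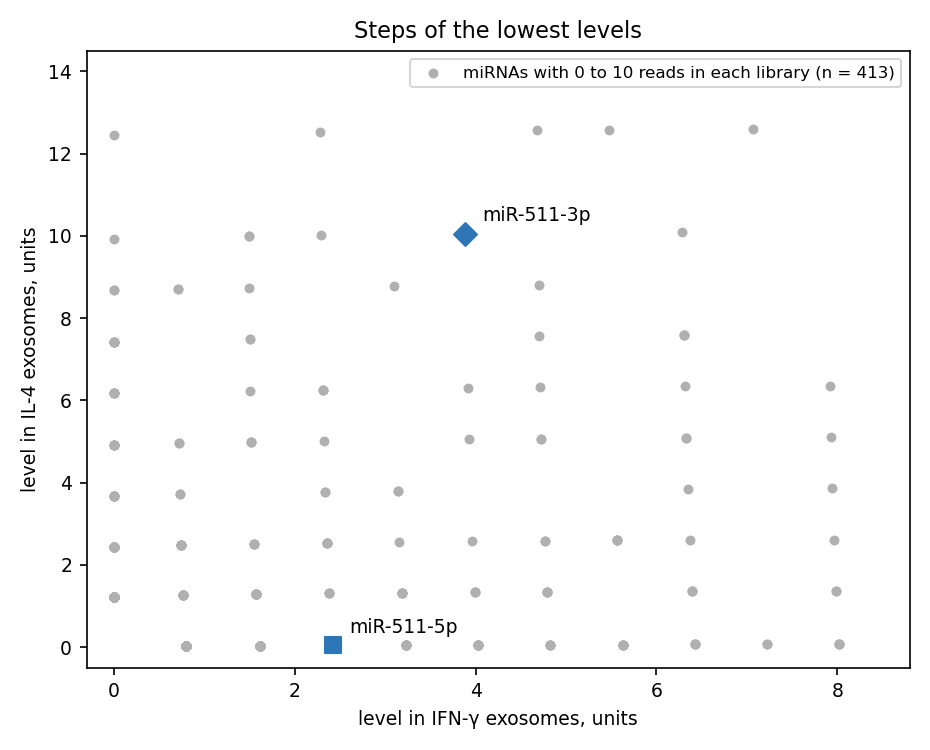
Level in IL-4 exosomes (vertical axis, units) against IFN-γ exosomes (horizontal axis, units) for the 413 miRNAs with 0 to 10 reads in each library and at least 1 read in 1 of them, many of which coincide. The points form a grid of whole reads, on which miR-511-3p (blue diamond) stands at 5 and 8 reads and miR-511-5p (blue square) at 3 and 0.

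In IFN-γ exosomes the members from high to low were miR-378a-3p, miR-378c, miR-378b, miR-378d, miR-511-3p, miR-378a-5p and miR-511-5p. The last 3 stood at 5, 4 and 3 reads and do not differ beyond counting error. In IL-4 exosomes miR-378a-5p stood above miR-511-3p, at 95.8 against 10.1 units. Levels of different miRNAs are also subject to differences in ligation, which the data do not measure.

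A miRNA was compared if it reached 10 units in at least 1 library, and counted as different at 2-fold. Of the 7 members 6 were compared, 6 were at least 2-fold higher in IL-4 exosomes and 0 in IFN-γ exosomes. The same held in the direction of IL-4 exosomes for 22.8% of the 337 miRNAs compared (77 miRNAs), and 26.1% were at least 2-fold higher in IFN-γ exosomes. The median log2 ratio was -1.61 over the 6 members and 0.04 over all compared. miR-378a-5p and miR-511-3p reached the minimum only in IL-4 exosomes, so they had to lean that way. Divided by the library sums, miR-511-3p fell below the minimum and the count became 4 of 5 members. With 10 added to each level it was 5 of 6. With the minimum required in both libraries 4 members were compared, miR-378a-3p, miR-378b, miR-378c and miR-378d, and 4 were at least 2-fold higher in IL-4 exosomes, against 15.0% of 246 miRNAs. Because these 4 entries may share reads, they may not be separate observations in any of these counts. From the most IL-4-sided ratio, miR-378d ranked 19th of 337, miR-378b 38th, miR-378a-3p 43rd, miR-511-3p 62nd and miR-378c 76th.

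**Figure D5:**
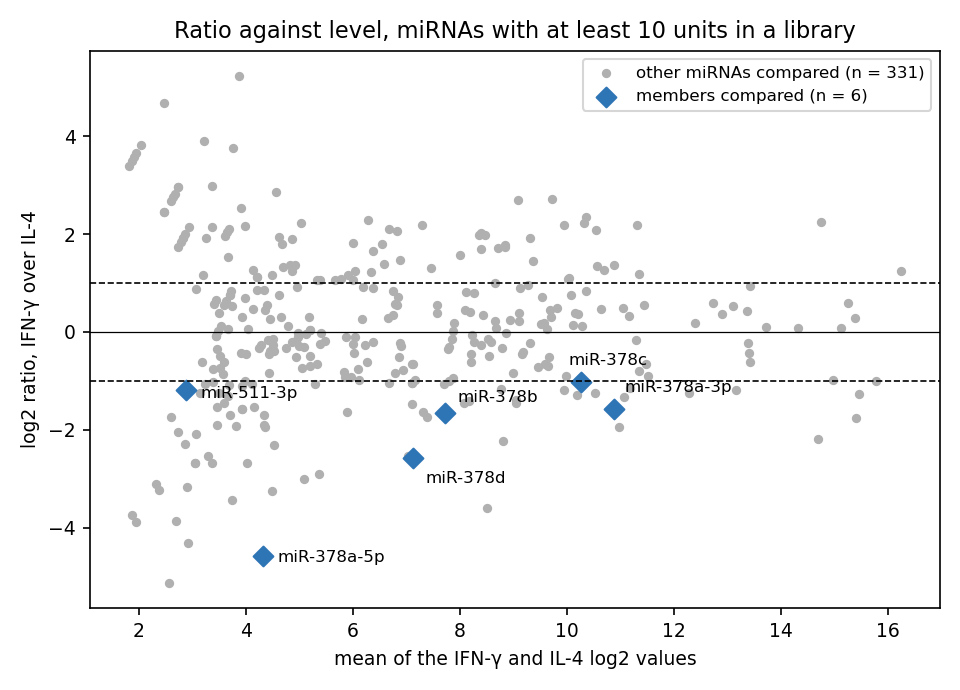
Log2 ratio of IFN-γ over IL-4 (vertical axis) against the mean of the log2 values (horizontal axis) for the 337 miRNAs compared, with dashed lines at 2-fold. The 6 members (blue diamonds) lie at or below the lower line, from miR-378c at -1.02 to miR-378a-5p at -4.58.

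The miRNAs whose pair of values lay closest to that of miR-378a-3p were let-7d-5p, miR-7a-5p and miR-1839-5p. Their distances in the plane of the 2 log2 values were 0.30, 0.31 and 0.51. let-7d-5p stood at 10.01 in IFN-γ exosomes and 11.95 in IL-4 exosomes, and miR-7a-5p at 10.39 and 11.73. For miR-511-3p the closest were miR-7062-5p at a distance of 0, miR-7033-5p at 0.37 and miR-16-2-3p at 0.50. With 2 libraries such likeness is of level and ratio only.

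Among 14 other miRNAs linked to IL-4 or alternative activation, 12 were compared and 0 of them reached 2-fold in favour of IL-4 exosomes. For 10 the ratio was within 2-fold, and 2 were over 2-fold higher in IFN-γ exosomes. The list had a median log2 ratio of -0.22, against 0.04 over all compared. Of the 8 myeloid markers, which share miR-21a-5p, miR-223-3p and miR-342-3p with this list, 8 were compared, with 3 over 2-fold higher in IFN-γ exosomes, 1 in IL-4 exosomes and a median of -0.11. The highest in level of the 14 was miR-21a-5p, which restrains inflammatory signalling, with a log2 ratio of -0.99. Under 3 of the 4 other scalings its ratio was -1.05 to -1.03, which makes 1 of the 12 at least 2-fold higher in IL-4 exosomes. The ratio of let-7c-5p was -0.44, and that of miR-223-3p, an abundant myeloid miRNA, was -0.69. miR-27a-3p, miR-222-3p and miR-342-3p had ratios of 0.43, 0.53 and 0.45. The 2 that were higher in IFN-γ exosomes, named after their values were seen, were miR-145a-5p, with 1 read in IL-4 exosomes and a fold of 25.2 (4.79 to 1135), and miR-146a-3p, with 2 reads and a fold of 5.13 (1.29 to 48.4), both without the added 1. Both reached the minimum only in IFN-γ exosomes, so they had to lean that way. With the minimum required in both libraries 10 of the list were compared, and 0 were at least 2-fold higher in either library. miR-124-3p, known from brain and microglia, was listed at 0 in both.

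miR-378a is also abundant in muscle, brown fat and liver, and markers of these tissues were read beside it. The 4 muscle miRNAs summed to 18.8 units in IFN-γ exosomes and 42.7 units in IL-4 exosomes. Of these, miR-1a-3p stood at 2 and 6 reads and miR-133a-3p at 0 and 1 read. miR-133b-3p stood at 1 read and near 11 reads, a fold of 19.7 (2.50 to 741) without the added 1. The highest of the 4 was miR-206-3p, at 16.6 and 20.2 units, with a log2 ratio of -0.27. The summed muscle level was higher in IL-4 exosomes. The 2 muscle miRNAs compared, miR-206-3p and miR-133b-3p, had a median of -1.69. Of these, miR-133b-3p reached the minimum only in IL-4 exosomes, so it had to lean that way. The 3 brown fat miRNAs summed to 7.11 and 5.12 units, with miR-365-3p at 0 in both. The 3 liver miRNAs summed to 60272 units in IFN-γ exosomes and 13050 units in IL-4 exosomes, mostly as miR-122-5p, 4.72-fold higher in IFN-γ exosomes. Within 2-fold were the other liver miRNAs, miR-192-5p and miR-194-5p, with log2 ratios of 0.35 and 0.34. Of the whole list of 12 for such tissues 4 were compared, with 1 at least 2-fold higher in each direction and a median of 0.04. The 1 in favour of IL-4 exosomes was miR-133b-3p, which had to lean that way. The part of these tissues in the level of the miR-378 entries was not tested.

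Mrc1 is also expressed by some endothelial cells. The endothelial miR-126a-3p stood at 950 units in IFN-γ exosomes and 580 units in IL-4 exosomes, a log2 ratio of 0.71. miR-126a-5p had 0.38, so that the 2 compared of the 3 endothelial miRNAs lay within 2-fold, and miR-126b-3p stood at 8 and 6 reads. The part of endothelial cells in the level of miR-511 was not tested.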

How the data were processed

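Small RNA of exosomes was sequenced in 2 libraries, made from 500 ng of RNA each with a NEBNext small RNA kit, per the labels' protocols. The submitters' processing notes list Bowtie2, bedtools and mm10 with no roles. For read assignment, reads that match several entries, strand and normalization, the method is not given in the sources used here. Log2 values were deposited by the authors, 1 per mature miRNA, and the scale of log2(level + 1) was read from the values. Because low values of 1 library moved slightly with those of the other, both were taken as normalized together, and every difference is relative to that. Low levels were numbered as reads where steps were separated by over 0.4 units, with levels up to 0.3 units read as 0. Intervals are exact Poisson intervals of reads and exact conditional binomial intervals of ratios. Library depth in reads is not given in the sources used here. As 1 read was worth 0.80 units in IFN-γ exosomes and 1.25 units in IL-4 exosomes, the same level rested on fewer reads in IL-4 exosomes.

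The members and lists were chosen with earlier results of these data known. The text names the 7 members, up to 6 compared miRNAs per list by mean level, and the 3 closest to miR-378a-3p and to miR-511-3p. Further marker miRNAs are named where a sum rests on them. Hairpins come from RefSeq, their overlap with genes from GENCODE M21. No test of the conditions was run, as each group has 1 library. The script that makes the calls was checked on simulated data. Alternatives changed the minimum level, the scaling and the added constant. Python 3.11.15, numpy 2.4.6, pandas 2.3.3 and scipy 1.17.1 were used.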

Additional observations from a re-analysis of the deposited data

How the results depend on the processing

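The log2 ratios of miR-378a-3p, miR-378b and miR-378d kept their direction and stayed past 2-fold under all 9 alternatives, at -1.63 to -1.47, -1.72 to -1.55 and -2.65 to -2.41. That of miR-378a-5p did so under the 7 in which it was compared, at -4.97 to -3.02. miR-378c was within 2-fold when divided by the library sums (-0.92), and miR-511-3p when 10 was added to each level (-0.53). The summed level stayed between -1.64 and -1.25. The scalings shifted ratios by -0.06 to 0.10 on the log2 scale. With no minimum 747 miRNAs were compared, 201 higher in IFN-γ exosomes and 229 in IL-4 exosomes, and 1 member, miR-511-5p, was counted as higher in IFN-γ exosomes from 3 reads. With a minimum of 100 units 162 were compared, 37 and 33 of them different. With 10 units required in both libraries 55 and 37 were. Leaving out members whose counting interval includes equality, chosen after seeing the data, left 5 members higher in IL-4 exosomes. No paired analysis was possible because there was 1 sample per group, and for the same reason none could be omitted. Depth limits every statement on miR-511 and the size of the miR-378a-5p fold.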
